A study of Mus musculus with 4 samples.

Results

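A set of 10 genes of Notch signalling, chosen by name, was followed through mouse molar mesenchyme with and without Bmp4. These members, and the gene lists set beside them, were chosen with earlier results of these data known. The members are the ligands Jag1, Dll1 and Dll4, the receptors Notch1 and Notch2, and the transcriptional repressors Hey1, Hey2, Heyl, Hes1 and Hes5. All of them were found among the 22072 genes listed, each with 1 RefSeq transcript. RNA sequencing was done on tooth mesenchyme cut by laser capture from frozen heads at embryonic day 13.5, with upper (maxillary) and lower (mandibular) molars kept apart. The mutant, Bmp4f/f;Wnt1Cre, carries floxed alleles of the signalling ligand Bmp4 and Wnt1Cre, a transgene with Cre under the Wnt1 promoter, which acts in neural crest, the source of tooth mesenchyme. The control, Bmp4f/+, carries 1 floxed allele, and no Cre is named in its label. Loss of Bmp4 and presence of the transgene cannot be told apart. All embryos were of mixed background. Each of the 4 combinations of genotype and molar is 1 library, made from RNA pooled from 3 pairs of control and mutant samples, so a difference within a molar has no replicate check.

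Notch receptors are membrane proteins that are cut when a Delta-like or Jagged ligand on a neighbouring cell binds them, and the freed intracellular part joins the DNA-binding protein Rbpj to switch on target genes. Hes and Hey genes are the classic targets. They encode basic helix-loop-helix (bHLH) proteins that repress transcription, and several of them are also known to respond to BMP signals. In embryos the pathway is known for its part in blood vessels, the nervous system and the developing tooth, where Jag1 and Notch genes are expressed.

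The repressors fall into 2 families, which can be read from the start of the bHLH coding region. Hes proteins have a proline in the basic region where Hey proteins have a glycine. The stretches of 36 coding bases below, from GENCODE M21 transcripts on GRCm38 and written 5′ to 3′, are shown because the results turn on these genes, and the capitals mark that codon.
Hey1: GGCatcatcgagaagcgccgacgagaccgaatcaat
Heyl: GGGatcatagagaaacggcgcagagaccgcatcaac
Hey2: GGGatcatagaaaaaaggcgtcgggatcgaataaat
Hes1: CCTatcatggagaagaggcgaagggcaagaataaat
Over these bases Hey1 was 77.8% identical to Heyl, 72.2% to Hey2 and 66.7% to Hes1. The pattern used to find the stretches did not match Hes5, so Hes1 alone stands for the Hes family here. That pattern allowed only proline or glycine at the marked codon.

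Values are FPKM (sequenced fragments per kilobase of each transcript, relative to all mapped fragments), a level that allows genes to be compared per length. Differences are mutant minus control, or lower minus upper molar, in log2(FPKM + 1), where the added 1 shrinks the differences of weakly expressed genes. Depth was about 4820000 to 5550000 reads on annotated transcripts per library. Read numbers per gene are estimates from the deposited coverage, and intervals made from them cover counting error only, not the spread between embryos. The targeted gene, Bmp4, read 24.8 (upper) and 27.2 FPKM (lower) in control molars, against 4.75 and 4.90 FPKM in mutant molars. The 10 mesenchyme markers summed to 775 to 831 FPKM per library, beside 58.8 to 76.0 FPKM for 16 endothelial markers and 21.9 to 24.3 FPKM for 12 of dental epithelium. Among the mesenchyme markers Msx1 had 98.4 to 150 FPKM and Pax9 57.4 to 108 FPKM. Genes averaging 1 FPKM or more across the libraries were tested with limma, which fitted genotype and molar together. Of the 10 members, 5 passed that filter (Hey1, Notch2, Jag1, Hes1 and Notch1). Heyl lay just under it, at a mean of 0.975 FPKM, followed by Dll4 at 0.821 FPKM.

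**Figure D1:**
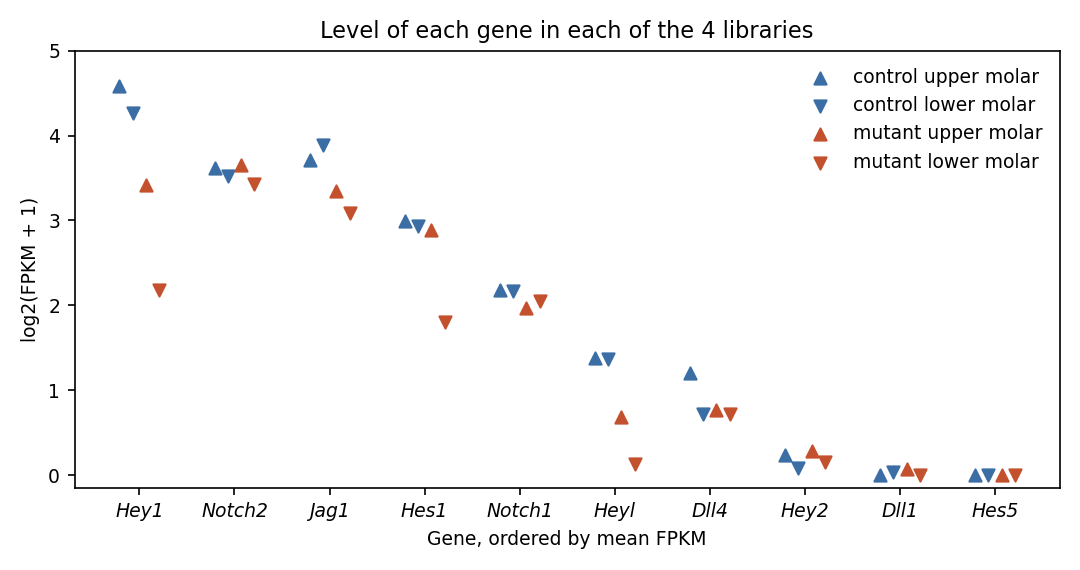
Level of each gene on the log2(FPKM + 1) scale (vertical axis) in each library; blue marks controls, orange marks mutants, upward triangles upper molars and downward triangles lower molars, 1 library each. Hey1 spans 3.53 to 23.0 FPKM, Notch2 stays between 9.78 and 11.6 FPKM, and Dll1 and Hes5 lie at or near 0.

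Hey1 had the highest mean level of the 10 genes and was the 1 tested member that limma called lower in the mutant. It lies at chr3:8663359-8667038 (mm9). Its level was 23.0 FPKM in the upper and 18.2 in the lower control molar, and 9.68 in the upper and 3.53 in the lower mutant molar, on about 664, 523, 317 and 110 reads. Both mutant libraries lay below both controls, and the lower molar was the lower one in each genotype. The mutant level was 2.37-fold lower in the upper molar (95% counting interval 2.08 to 2.72) and 5.14-fold lower in the lower molar (4.17 to 6.37).

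Over both molars Hey1 fell by 1.62 ± 0.20 on the log2 scale (SE, limma adjusted p = 0.028, 2 libraries per genotype, lower in 2 of 2 molars). limma called 0.8% of the 10502 genes tested for genotype in either direction, and 0.457% lower in the mutant. Its p-values set a genotype difference against a variance estimated from the disagreement between the 2 molars. Most of the weight in that variance comes from other genes of similar level (5.77 prior against 1 residual degree of freedom). For Hey1 itself the genotype difference in the lower molar minus that in the upper molar was -0.91. The p-values do not cover the spread between embryos or pools. Without the control upper, control lower or mutant lower library Hey1 was no longer called (limma adjusted p = 0.97, 0.91 and 0.23); without the mutant upper library it still was (limma adjusted p = 0.022). Its difference in those 4 fits, which also had no molar term, ranged from -2.24 to -1.01. With all 4 libraries and no molar term Hey1 was not called either (limma adjusted p = 0.42).

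Heyl, the third Hey family member, had the largest fold difference of the members read in every library, but few reads. It lies at chr4:122910799-122927113 (mm9). Its level was 1.60 FPKM in the upper and 1.59 in the lower control molar, and 0.614 in the upper and 0.0989 in the lower mutant molar, the last on about 6 reads. The 2 controls were alike, and both mutants were below them. The mutant level was 2.61-fold lower in the upper molar (95% counting interval 1.80 to 3.89) and 16.1-fold lower in the lower molar (7.49 to 47.3). Heyl did not pass the filter; when the filter was relaxed to a mean of 0.5 FPKM, a setting added after its values were seen, the difference was -0.96 ± 0.19 (log2, SE, limma adjusted p = 0.099).

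Hes1, a target of Notch and of other signals, differed in the mutant lower molar. It lies at chr16:30065443-30067882 (mm9). Its level was 7.00 FPKM in the upper and 6.64 in the lower control molar, and 6.42 in the upper and 2.50 in the lower mutant molar. The first 3 libraries lay close together and the mutant lower molar stood apart. The mutant level was 1.09-fold lower in the upper molar (95% counting interval 0.855 to 1.40) and 2.66-fold lower in the lower molar (1.91 to 3.77). Over both molars the difference was -0.62 ± 0.22 (log2, SE, limma adjusted p = 0.33), which missed the threshold. Without the mutant lower library it was -0.08, and without the mutant upper library -1.16.

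For Hey1, Heyl, Hes1, Jag1 and Notch2 the mutant lower molar held the lowest level of the 4 libraries, as it did for 38.2% of all tested genes. Whether the genotype difference itself differs between molars was not tested, because the fit with that term leaves no residual. The genotype difference in the lower molar minus that in the upper molar was -0.91 for Hey1, -1.02 for Hes1, -0.43 for Jag1, -0.14 for Notch2 and 0.08 for Notch1 on the log2 scale.

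**Figure D2:**
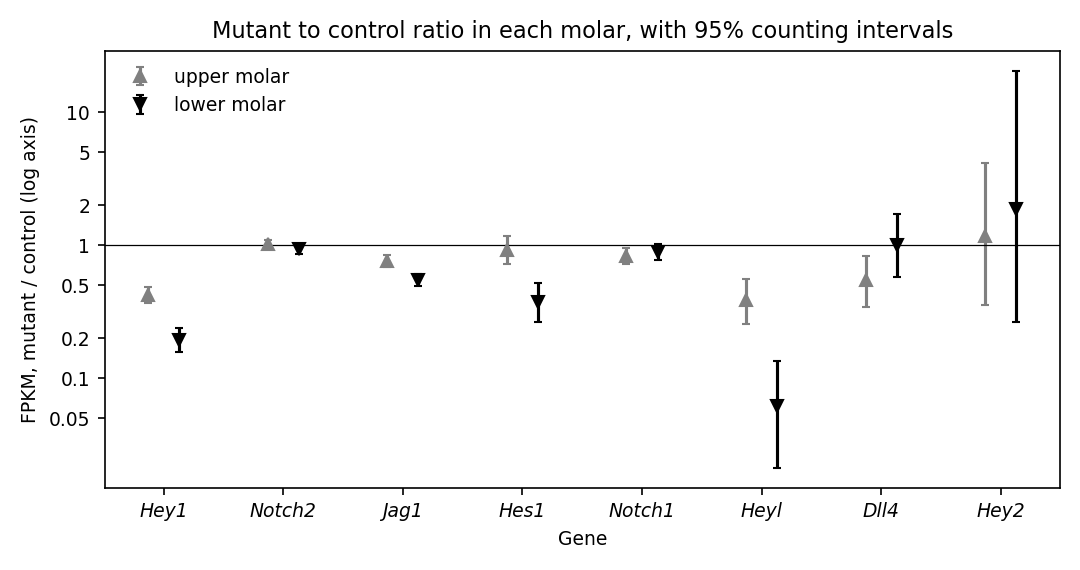
Ratio of mutant to control FPKM (vertical log axis) for 8 of the 10 genes, in the upper molar (grey, upward) and lower molar (black, downward); bars are 95% counting intervals from estimated reads, with 1 library per genotype and molar. Hey1 and Heyl lie below 1 in both molars, Hes1 lies at 0.917 (upper) and 0.376 (lower), and the bars of Hey2 span more than the whole range of Hey1.

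The other repressors were nearly silent. Hey2, known for its part in heart and vessel development, had 0.183 (upper) and 0.0610 FPKM (lower) in control molars against 0.214 and 0.114 FPKM in mutant molars, on 2 to 8 reads per library. Its mutant to control ratio was 1.17 in the upper molar (95% counting interval 0.358 to 4.11) and 1.86 in the lower molar (0.265 to 20.5), so this depth could not show a difference. Hes5, a Notch target best known from neural progenitors, was listed at 0 in all 4 libraries. A count of 0 allows a level of up to 0.159 to 0.181 FPKM, that of 3 reads.

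These silent genes have sequences near their start that resemble the site of Rbpj, the DNA-binding partner of the Notch intracellular part. The RefSeq promoter table (GRCm38.p6, from 250 bases before to 50 after a start) matched 7 of the 10 members by symbol, which leaves Hey1, Heyl and Hes1 without an entry. The letters GTGGGAA, searched on both strands, occurred in Hes5 and Hey2 and in 6.38% of the 32851 promoters of that table. The matches further upstream are shown within 40 bases, read on the strand of the gene, with the match in capitals.
Hes5, 226 bases before the start, chr4:154960681-154960720, plus strand: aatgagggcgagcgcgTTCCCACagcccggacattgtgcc
Hes5, 83 bases before the start, chr4:154960824-154960863, plus strand: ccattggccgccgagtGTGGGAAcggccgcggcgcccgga
Hey2, 207 bases before the start, chr10:30842967-30843006, minus strand: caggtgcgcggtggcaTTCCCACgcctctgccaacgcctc
A second Hey2 match lay 4 bases before its start. A match describes these letters and is not shown to be a site. GGCGCC, a palindrome known from BMP-responsive elements, occurred in Hes5, Hey2 and Dll1 and in 11.9% of all promoters. CACNAG, the N-box bound by Hes proteins, occurred in Notch1, Notch2, Dll1 and Dll4 and in 42.5% of all promoters. CACGTG, the E-box bound by Hey and Hes proteins, occurred in 0 of the 7 members and in 7.15% of all promoters. The motifs were searched on both strands of the whole window, and overlapping matches were counted. Members were counted by gene, over all entries of that gene, and the shares by single promoter. A gene with several entries, such as Dll1, thus had more room for a match.

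Among ligands, Jag1 was the one clearly expressed. Jag1, at chr2:136907187-136942256 (mm9), had 12.2 FPKM in the upper and 13.8 in the lower control molar, and 9.20 in the upper and 7.48 in the lower mutant molar. Both mutants lay below both controls. The mutant level was 1.32-fold lower in the upper molar (95% counting interval 1.20 to 1.46) and 1.84-fold lower in the lower molar (1.66 to 2.04). Over both molars the difference was -0.58 ± 0.13 (log2, SE, limma adjusted p = 0.16), and it passed the test when the filter was raised to 5 FPKM (limma adjusted p = 0.022). At that filter limma called 146 of all 5307 genes tested for genotype, against 84 of 10502 in the main fit.

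The Delta-like ligands were low. Dll4, the ligand of sprouting vessels (chr2:119151520-119161402, mm9), had 1.30 (upper) and 0.642 FPKM (lower) in control molars against 0.706 and 0.642 FPKM in mutant molars. The control upper molar alone was high, on about 59 reads against 29 to 36 in the others. Dll4 was 1.83-fold lower in the mutant upper molar (95% counting interval 1.21 to 2.90), and the fold in the lower molar was 0.999 (0.588 to 1.73). Dll1, a ligand of early neurogenesis and somites, had 0 (upper) and 1 read (lower) in control molars against 2 and 0 reads in mutant molars. These reads lie under the level of 3 reads, and no difference was detectable.

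Of the 5 tested members, both receptors varied less across the libraries than the other 3. Notch2, at chr3:97817461-97954290 (mm9), was read most deeply of the members, with about 1446 to 1808 reads per library. It had 11.3 (upper) and 10.6 FPKM (lower) in control molars against 11.6 and 9.78 FPKM in mutant molars, so the genotypes overlapped. Its difference over both molars was -0.03 ± 0.11 (log2, SE, limma adjusted p = 0.93). Notch1, at chr2:26313422-26359342 (mm9), had 3.53 (upper) and 3.51 FPKM (lower) in control molars against 2.91 and 3.13 FPKM in mutant molars. Both mutants were a little below both controls, and the difference was -0.17 ± 0.12 (log2, SE, limma adjusted p = 0.59).

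In order of mean level the genes ran Hey1 (13.6 FPKM), Notch2 (10.8), Jag1 (10.7), Hes1 (5.64), Notch1 (3.27), Heyl (0.975), Dll4 (0.821), Hey2 (0.143), Dll1 (0.0183) and Hes5 (0). The ranges over libraries of the neighbours Hey1, Notch2 and Jag1 overlap, as do those of Hes1 and Notch1, of Heyl and Dll4, and of Dll1 and Hes5. Those of Jag1 and Hes1, of Notch1 and Heyl, and of Dll4 and Hey2 do not. The lowest Hey2 value (0.0610 FPKM, control lower molar) and highest Dll1 value (0.0470 FPKM, mutant upper molar) each rest on 2 reads. Both lie under the level of 3 reads, so the gap between these ranges is not resolved.

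Taking the 5 tested members as a group, both mutant libraries lay below both controls in 4 (Hey1, Hes1, Notch1 and Jag1), which 23.1% of all tested genes did. Their median difference was -0.21 (upper molar) and -0.80 (lower molar), beside 0.02 and -0.05 over all tested genes. At least 2-fold lower in the mutant were Hey1 in the upper molar, where 0.59% of tested genes were, and Hey1 and Hes1 in the lower molar, where 0.619% were. limma called 1 of the 5, Hey1. Because the members were chosen with earlier results of these data known, the shares over all tested genes are no independent comparison.

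The comparison of the lower with the upper molar gave no call among the 5 tested members, where limma called 0.724% of all genes tested. 2 of the 5, Hey1 and Hes1, had an unadjusted limma p under 0.05, as did 10.2% of all tested genes. Hey1 was lower in the lower molar by 0.32 in the controls and 1.24 in the mutants, and Hes1 by 0.07 and 1.09. Over both genotypes the molar difference was -0.78 ± 0.20 for Hey1 and -0.58 ± 0.22 for Hes1 (log2, SE, limma adjusted p = 0.24 and 0.45). For Hey1 it turned to 0.26 without the mutant lower library, in a fit with no genotype term. The genotype difference of Hey1 therefore enters that value. Within the controls, the 1 genotype with both molars in that fit, it was -0.32. The molar difference of Hey1 passed the test when the filter was raised to 5 FPKM (limma adjusted p = 0.030), where limma called 127 of all 5307 genes tested. Jag1 was 0.17 higher in the control and 0.27 lower in the mutant lower molar than in the upper. The molar difference was -0.16 for Notch2 and 0.04 for Notch1.

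The rest of the pathway was read from 61 further genes, of which 46 were tested. limma called 1 of the 46 higher in the mutant and 0 lower, beside 0.343% higher and 0.457% lower over all tested genes. 8 of the 46 had an unadjusted limma p under 0.05, beside 13.2% of all tested genes. Their median difference was -0.02 over both molars, beside -0.015 for all tested genes. The 1 called gene was Cntn6, a neural adhesion molecule listed as a non-canonical Notch ligand. It had 2.72 (upper) and 2.44 FPKM (lower) in control molars against 5.72 and 6.90 FPKM in mutant molars, and rose by 1.03 (log2, limma adjusted p = 0.028).

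Among the other receptors, Notch3, known from vessel wall cells, had 8.70 (upper) and 9.03 FPKM (lower) in control molars against 6.51 and 6.38 FPKM in mutant molars (limma adjusted p = 0.20). Notch4, known from endothelium, lay between 0.880 and 1.08 FPKM. Jag2 lay between 0.281 and 0.786 FPKM and Dll3 at or under 0.0570 FPKM. Of the 5 canonical ligands, Jag1 was thus the 1 that passed the filter.

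The machinery that cuts and relays Notch was present throughout, and limma called 0 of its genes. In the nuclear complex, Rbpj had 10.8 (upper) and 10.5 FPKM (lower) in control molars against 9.80 and 11.5 FPKM in mutant molars. All 11 genes of that list were tested, and both molars showed a lower mutant level for 6 of them, with medians of -0.08 (upper) and -0.15 (lower). Over all tested genes 32.4% were lower and 27.2% higher in both molars. For the acetyltransferase Ep300 the difference was -0.21 (limma adjusted p = 0.46). Of the receptor cleavage genes 7 of 10 were tested, 3 lower and 3 higher in both molars. In ligand endocytosis and receptor turnover 12 of 13 were tested, with 2 lower and 3 higher in both. Fbxw7, which marks the Notch intracellular part for breakdown, differed by -0.32, and the Deltex gene Dtx1 by 0.41 (limma adjusted p = 0.34 and 0.31). Of the Fringe and O-glycosylation genes 4 of 5 were tested, with a median of 0.04.

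Of the other genes of the repressor and target list, limma called 0. Nrarp, a feedback inhibitor and common Notch target, had 1.56 (upper) and 1.48 FPKM (lower) in control molars against 1.24 and 1.80 FPKM in mutant molars. Tle1, a corepressor recruited by Hes proteins, had 9.37 (upper) and 9.17 FPKM (lower) in control molars against 11.5 and 12.1 FPKM in mutant molars (difference 0.31, limma adjusted p = 0.30). Hes6, a relative that counteracts Hes1, had 0.470 (upper) and 1.05 FPKM (lower) in control molars against 2.51 and 1.21 FPKM in mutant molars (limma adjusted p = 0.36). Between molars, the 4 genes ranked highest by the smaller of their differences in the 2 genotypes were Dlk1, Tle2, Fbxw7 and Hdac1, with molar differences of 0.54, -0.40, -0.41 and -0.39 over both genotypes. For molar limma called 0 of the 46, and 5 had an unadjusted limma p under 0.05, beside 10.2% of all tested genes.

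**Figure D3:**
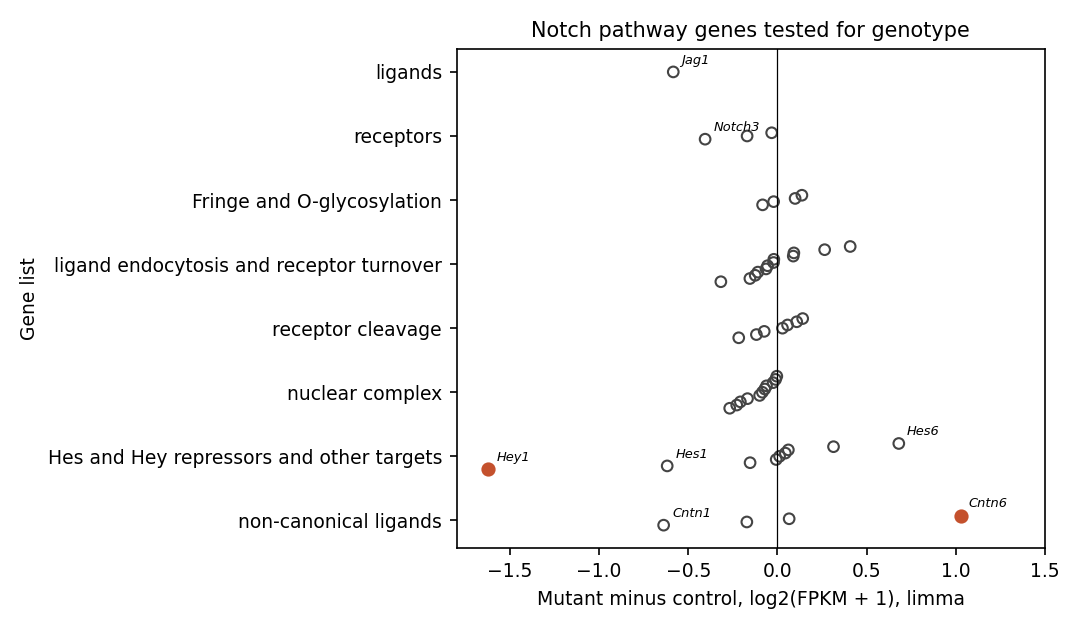
Genotype difference from limma over both molars (horizontal axis, log2(FPKM + 1), mutant minus control) for each tested gene of 8 Notch pathway lists (rows), 2 libraries per genotype; filled orange points passed an adjusted p of 0.05, open points did not, and the vertical offset within a row only separates points. Hey1 at -1.62 and Cntn6 at 1.03 are the filled points.

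Genes known to respond to BMP were set beside the repressors. Of 11 tested in that list, which holds the targeted gene Bmp4, limma called 4 lower (Bmp4 itself, Id3, Msx2 and Smad9) and 0 higher, beside 0.457% called lower over all tested genes. All 11 were lower in both molars, as were 32.4% of all tested genes. Id1 and Id3 encode inhibitors of bHLH factors. Id3 had 81.2 (upper) and 60.1 FPKM (lower) in control molars against 42.2 and 21.4 FPKM in mutant molars. Id1 had 5.31 (upper) and 5.10 FPKM (lower) in control molars against 4.10 and 1.99 FPKM in mutant molars, and like Hes1 was lowest in the mutant lower molar. Its difference was -0.67 (limma adjusted p = 0.20), that of Id2 was -0.55 (0.10) and that of Id4 was -0.36 (0.36). Msx2, a homeobox factor, had 3.77 (upper) and 3.10 FPKM (lower) in control molars against 0.783 and 0.399 FPKM in mutant molars.

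The genes whose levels followed Hey1 most closely were found by the Euclidean distance between log2(FPKM + 1) values of the 4 libraries, each centred on its own mean, among 8762 other genes averaging 2 FPKM or more. The nearest 6 were Mmp9 (a matrix protease), Mical2 (an actin-oxidising enzyme), Id3, Sox9 (a factor of cartilage formation), Smad9 (a BMP signal transducer) and Cthrc1 (a secreted protein), at distances of 0.437, 0.443, 0.488, 0.614, 0.620 and 0.644. Mmp9 had 4.76 (upper) and 3.40 FPKM (lower) in control molars against 2.02 and 0.529 FPKM in mutant molars. With 4 libraries this is a description of these samples.

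**Figure D4:**
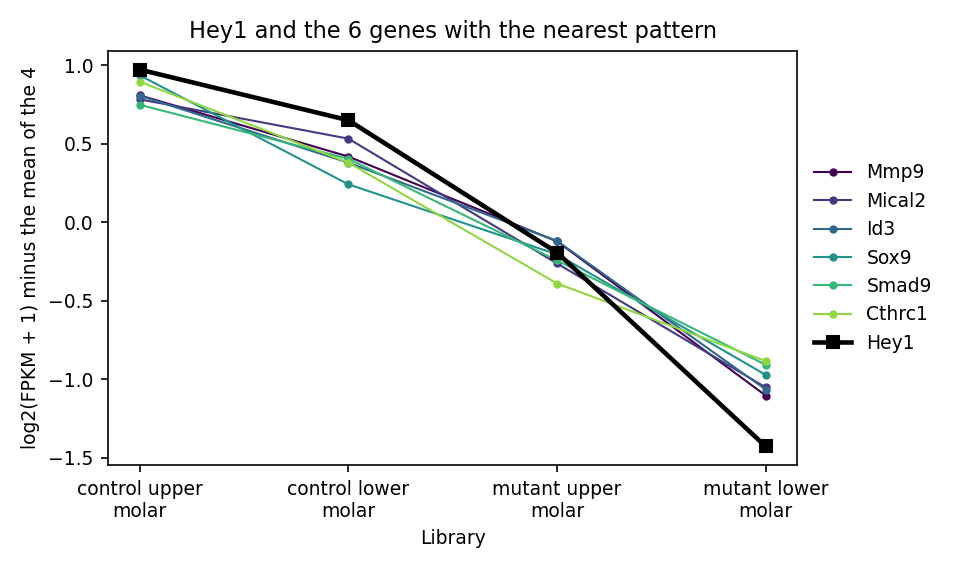
Centred log2(FPKM + 1) of Hey1 (black squares) and the 6 nearest genes (coloured) in each library; lines join the values of 1 gene and the 4 libraries have no order. All 7 genes are highest in the control upper molar and lowest in the mutant lower molar.

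Several members are also expressed by vessels, so markers of other cells in the captures are given here. In bulk tissue, fewer cells of a type and less RNA per cell cannot be told apart. The summed level of 16 endothelial markers was 76.0 (upper) and 70.0 FPKM (lower) in control molars against 58.8 and 65.2 FPKM in mutant molars. Of 15 tested, 14 (upper molar) and 9 (lower molar) were below the control. In both molars 8 were lower and 0 higher, beside 32.4% and 27.2% of all tested genes. limma called 0 of the 15 for genotype, beside 0.8% of all tested genes. Cdh5 was at 16.3, 15.6, 10.3 and 13.5 FPKM in the order control upper, control lower, mutant upper and mutant lower. Pecam1 lay between 6.60 and 7.54 FPKM.

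The 12 pericyte and smooth muscle markers summed to 61.7 (upper) and 58.4 FPKM (lower) in control molars against 44.1 and 41.9 FPKM in mutant molars. Rgs5, a pericyte gene, was at 31.8 (upper) and 25.05 FPKM (lower) in control molars against 9.03 and 9.48 FPKM in mutant molars (limma adjusted p = 0.011, the 1 call among 6 tested). Without it the other 11 summed to 29.9 (upper) and 33.3 FPKM (lower) in control molars against 35.1 and 32.4 FPKM in mutant molars, with Pdgfrb the highest at 14.1 to 20.2 FPKM, and 6 of them were lower and 4 higher in both mutant molars. Among the 6 were the weakly expressed pericyte genes Kcnj8, at 0.391 (upper) and 1.29 FPKM (lower) in control molars against 0.0619 and 0.196 FPKM in mutant molars, and Abcc9, at 0.973 and 1.09 against 0.467 and 0.484 FPKM; neither passed the filter. Of the 6 markers of this list that were tested, Rgs5 included, 3 were lower and 3 higher in both mutant molars, beside 32.4% and 27.2% of all tested genes. Of the smooth muscle genes in the list, Myh11 and Cnn1 were at or under 0.291 FPKM and Tagln at or under 0.755 FPKM. Acta2, which passed the filter, had 1.58 (upper) and 1.85 FPKM (lower) in control molars against 2.62 and 1.85 FPKM in mutant molars. Of the dental epithelium markers Shh was at or under 0.0481 FPKM, and the 8 erythroid and macrophage markers summed to 122 to 158 FPKM. The 10 neural and glial markers summed to 3.58 (upper) and 4.92 FPKM (lower) in control molars against 8.91 and 7.44 FPKM in mutant molars. Nefl, a neurofilament gene, had 0.632 (upper) and 1.52 FPKM (lower) in control molars against 6.89 and 4.15 FPKM in mutant molars (limma adjusted p = 0.057), and without it the other 9 summed to 2.95 and 3.40 against 2.03 and 3.29 FPKM. Of these 9, 3 were lower and 2 higher in both mutant molars, with Tubb3 at 0.9998 and 0.817 against 0.0858 and 0.399 FPKM and Sox10 at or under 0.436 FPKM. These 9 did not pass the filter, so the shares over all tested genes do not apply to them. The part of these cells in the differences of Hey1, Heyl, Hes1, Jag1 and Dll4 was not tested.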

How the data were processed

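RNA was measured in 4 pools of laser-captured molar mesenchyme, 1 per genotype and molar. Per the labels' protocols, cDNA was made with NuGEN Ovation RNA-Seq v2 and libraries with Illumina Nextera. Per the submitters' processing notes, the aligners were Bowtie 0.12.7 and TopHat 1.4.1, on mm9. The Cufflinks version and the strand setting are not given in the sources used here, and reads from overlapping or antisense genes cannot be told apart. The authors' tables give FPKM for 28107 RefSeq transcripts, scaled to mapped reads, per the file headers. The deposited coverage is a constant multiple of FPKM in each library. Whole reads were not recovered, so no count test was run. The estimation status was OK for all 10 members in all libraries.

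FPKM was summed per gene symbol. Reads were estimated as coverage times length over 44.2 bases, the mean over libraries of the median of coverage times length among values of 25 to 60 bases, taken as single reads. Ratios carry 95% exact binomial (Clopper-Pearson) intervals from these reads, which treat amplified reads as if they were separate molecules. Differences used log2(FPKM + 1), a pseudocount of 1, for the 10502 genes averaging 1 FPKM or more. limma 3.58.1 in R 4.3.3 was fitted over all these genes with additive genotype and molar terms and an intensity trend, two-sided, with Benjamini-Hochberg adjustment at 0.05. It had 1 residual and 5.77 prior degrees of freedom. Within a molar a log2 difference of 1 was counted without a test. An exact permutation test of 2 libraries against 2 cannot go below p = 0.333 and was not used. Alternatives were another scaling, pseudocount, filter, transcript choice or model, and leaving out each library.

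The members and gene lists were chosen with earlier results of these data known. All 10 members are named. Other pathway genes are named if called, or if among the 6 (genotype) or 4 (molar) with the largest difference shared by both molars or both genotypes, ranked by the smaller of the 2. Other genes (Notch4, Jag2, Dll3, Rbpj, Nrarp, Hes6, Kcnj8, Abcc9, Acta2, Tagln, Nefl and Tubb3) were added after their values were seen. Older symbols were matched through RefSeq synonyms (GRCm38.p6), and all 61 further pathway genes matched.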

Additional observations from a re-analysis of the deposited data

Results flagged for a closer look

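Notch2 was the 1 tested member whose genotype difference had opposite signs in the 2 molars, 0.04 for the upper molar and -0.10 for the lower (log2, mutant minus control, 1 library per genotype and molar). The difference between the molars was not tested.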

How the results depend on the processing

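Hey1 was lower in the mutant under all 14 alternatives and was called under 7 of them (limma adjusted p from 0.00024 to 0.97). Both mutant libraries of Hey1 lay below both controls, so another pseudocount, filter or model, or a left-out library, could not turn this sign. The 7 include the filter at a mean of 0.5 FPKM, which was added after the values of Heyl were seen. Of the 5 tested members, limma called 1 for genotype in the main analysis. It called 2 (Hey1 and Jag1) of the 4 tested with the filter at 5 FPKM, beside 146 of all 5307 genes tested. Without a filter it called 0 of the 9 tested, and 0 of all 16973 genes. It also called 0 of the 5 with the highest transcript only, without an intensity trend or without a term for the other factor. Under these settings with 0 calls limma gave 2 or 3 members an unadjusted p under 0.05. Over all genes limma did so for 1398 of 16973, 1003 of 10351, 1299 of 10502 and 935 of 10502, in the order named. It called 0 to 1 when a library was left out. For molar it called 0 in the main analysis and 1 (Hey1) at a mean of at least 5 FPKM, beside 127 of all 5307 genes tested.

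Of all genes, limma called 84 for genotype, against 146 at a mean of at least 5 FPKM, 133 with transcripts of at least 0.3 kb, 38 without a trend, 7 without a term for molar, 5 to 18 without 1 library, and 0 without a filter or with the highest transcript only (1398 and 1003 at an unadjusted p under 0.05). For molar the 76 calls became 127, 139, 12 without a term for genotype, 1 with the highest transcript only, 0 without a filter (1225 unadjusted) and 0 to 21 without 1 library, with 0 reached without the mutant lower library (407 unadjusted). Genes past 2-fold numbered 106 (upper molar) and 115 (lower molar), against 223 and 249 with a pseudocount of 0.1, 35 and 45 at a mean of at least 5 FPKM, 240 and 267 with the highest transcript only, and 63 and 70 with transcripts of at least 0.3 kb. Without a filter the lower molar had 175. The cause of these shifts was not tested.

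When 1 library was left out, some differences turned sign. The molar difference of Hey1, -0.78 with all libraries, ranged from -1.82 to 0.26, the latter without the mutant lower library. The genotype difference of Notch2 ranged from -0.144 to 0.0793, and the molar differences of Notch1 from -0.0705 to 0.142 and of Jag1 from -0.45 to 0.35. The 3 remaining libraries then had no term for the other factor, so genotype enters these molar differences and molar enters the genotype differences. With genotype held fixed, the molar difference of Hey1 was -0.32 in controls and -1.24 in mutants, and that of Jag1 0.17 and -0.27. In each such fit the lone library was assumed to vary like the others. With 1 control and 1 mutant library per molar, the molar term of the main fit pairs the libraries by molar. Pairing by embryo was not possible, because each combination of genotype and molar is 1 pooled library. Depth limits Hey2, Dll1 and Hes5 to 8 reads or fewer per library.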
